A study of Mus musculus with 22 samples.

Results

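The 3 brain libraries of a 22-library mouse RNA-seq series, from putamen, medulla oblongata and sensorimotor cortex, were set against the other 19 libraries over 20674 protein-coding genes. Putamen is part of the striatum, the input station of the basal ganglia. The medulla oblongata is the lowest part of the brain stem, and the sensorimotor cortex is neocortex. The 19 non-brain libraries were B cells activated by LPS alone or joined with IL4, IL21 or a-d-dextran, by aCD40+IL4 or by aBCD180, splenic B cells, the CH12 B lymphoma line (clone bc5), basophils, back skin, and T cells. The T cells were follicular helper (Tfh), follicular regulatory (Tfr), non-Tfh (CD4+CD44+CXCR5-PD1-CD25-) and total CD4+ T cells, each with a second library marked as mutant, and CD4+ T cells stimulated with ConA. The labels name no mutated gene for the mutant libraries, and they give no age, sex or strain for the brain and skin tissue. Each label had 1 library, so no region has a replicate. All p-values therefore measure the spread between unlike libraries of a side, not between animals. Back skin is the only solid tissue on the non-brain side, and 18 of the 19 are blood-lineage cells. A gene high in brain may thus be high in solid tissue generally, and values for back skin are given where they bear on this.

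Neurons signal through vesicles that fuse with the membrane at synapses, through receptors that receive the transmitter, and through voltage-gated channels that carry the impulse. Oligodendrocytes wrap axons in myelin, astrocytes clear transmitter and potassium, and microglia are the resident macrophages. Most adult neurons do not divide, brain parenchyma holds few lymphocytes, and it is known for low levels of the molecules that present antigen.

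Markers of the regions matched the labels. The summed level of 10 striatal markers was 11388.8 TPM (a level corrected for transcript length and library size) in putamen, 662.7 TPM in medulla and 854.9 TPM in cortex. The 10 medullary markers summed to 777.9 TPM in medulla, against 14.2 TPM in putamen and 0.8 TPM in cortex, and 10 neocortical markers summed to 1804.8 TPM in cortex, against 188.6 TPM in putamen and 115.2 TPM in medulla. Each library was therefore led by its own region's genes.

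Transcripts of other organs were present in the brain libraries. Intestinal epithelial genes summed to 1547.2 TPM in putamen, 144.2 TPM in medulla and 66.6 TPM in cortex, and to at most 44.0 TPM in any non-brain library. The median of the 15 genes was 40.2 TPM in putamen, 2.42 TPM in medulla and 0.26 TPM in cortex. Only 4 of the 15 were at 1 TPM or more in every region. Whether those in medulla and cortex came from intestine or from another organ was not tested. Liver genes were at nearly equal levels in the 3 regions: Alb, serum albumin, had 148.5, 128.5 and 152.0 TPM in putamen, medulla and cortex, against a non-brain median of 0 and a highest value of 3.47 TPM. The 16 liver genes of a list drawn up after these values were seen summed to 431.8, 299.9 and 359.5 TPM in putamen, medulla and cortex, and all 16 were at 1 TPM or more in every region. Their sum was 495.9 TPM in back skin, most of it from Apoc1, Cyp2e1 and Rbp4, and 0.5 to 12.6 TPM in the other 18 libraries. Ddx3y, which lies on the Y chromosome, had 42.2 TPM in putamen, 57.5 TPM in medulla and 0.09 TPM in cortex. Haemoglobin and other erythroid genes summed to 580.3, 1426.6 and 488.6 TPM in the same order, and none of the 8 was called. Their sum was 302.9 TPM in back skin and 0.5 to 11064.7 TPM in the other 18 libraries. It was highest in B cells activated by LPS and IL21, so these transcripts did not set brain apart. Meningeal and fibroblast genes summed to 1326.5, 2286.0 and 2366.4 TPM, against 3297.9 TPM in back skin. Choroid plexus genes summed to 42.0, 31.8 and 20.6 TPM, against 58.2 TPM in back skin. Pituitary genes summed to 7.0, 22.2 and 4.4 TPM, against 2.0 TPM in back skin. Skeletal muscle genes summed to 248.1, 152.1 and 186.2 TPM, against 7113.0 TPM in back skin. In these lists 4 of 12, 4 of 9, 1 of 2 and 0 of 10 tested genes were called higher, against 27.0% of all genes tested. The part of these transcripts in the results was not tested, and intestinal genes are left out of the ranking by gap.

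Brain libraries held more genes at a measurable level. Putamen, medulla and cortex had 14045, 13887 and 13406 genes at 1 TPM or more, and the 19 non-brain libraries had 10288 to 13217. The highest non-brain library was back skin, and the next had 11407. The mean was 13779 ± 333 in brain and 10886 ± 649 in the non-brain libraries (SD, n = 3 and 19), a difference of 2894 (two-sided exact permutation test, p = 0.0006494, the smallest that this design can give). All 3 brain libraries lay above all 19 others. Expression was also spread over more genes: the 100 highest genes took 19.15% to 20.88% of the TPM in brain libraries, against 27.98% to 47.76% in non-brain libraries (exact permutation p = 0.0006494).

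**Figure D1:**
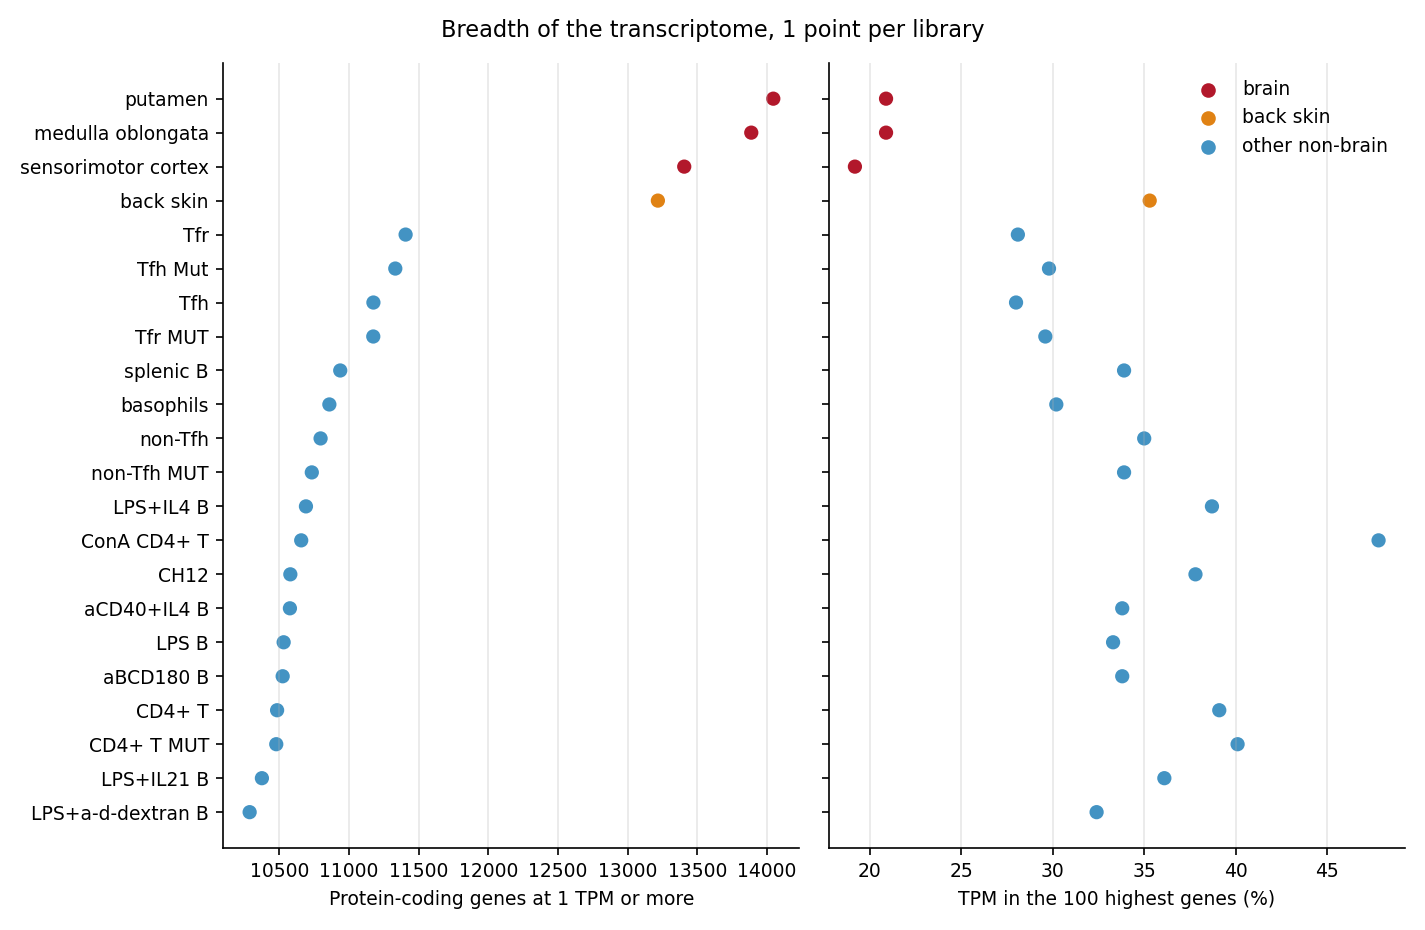
Number of protein-coding genes at 1 TPM or more (left) and percentage of all TPM held by the 100 highest genes (right), 1 point per library, with brain libraries at the top and non-brain libraries below them by number of genes. The brain libraries lie between 13406 and 14045 genes and between 19.15% and 20.88%, and back skin is the nearest non-brain library on the left.

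Of 16123 genes with enough counts to test, 4348 were higher and 4305 lower in brain (edgeR quasi-likelihood F-test on the counts, Benjamini-Hochberg adjusted p under 0.05), so 27.0% were called higher, 26.7% lower and 53.7% in either direction. The balance depended on the scale: 50.2% of the calls were higher here, against 66.9% with limma on log2(TPM + 1), where 6189 genes were higher and 3058 lower. The median log2 fold change of all genes was -0.16 with the scaling used here and 0.16 with the median-ratio scaling, so a log2 difference of that size has no fixed direction. All 3 brain libraries lay above all 19 others for 3911 genes (24.3% of those tested) and below all 19 for 1200 (7.44%).

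A gene was counted as common to the 3 regions when it had 10 TPM or more in each of them and its lowest brain value exceeded its highest non-brain value by at least 2 on the log2(TPM + 1) scale. That held for 1030 genes, or 6.39% of those tested. All 1030 were called higher, which the rule made likely and which is no separate result. Of these genes, 451 were under 1 TPM in all 19 non-brain libraries and are called restricted to brain below. The name holds against these 19 libraries only, since no other organ but skin was compared. The 451 include 3 genes of the intestinal list and 1 of the liver list. Lrrn3 was just inside the rule, with 33.5, 24.1 and 40.5 TPM in putamen, medulla and cortex and at most 5.26 TPM elsewhere. Dok5 was just outside it, with 19.3, 33.7 and 34.7 TPM in brain and at most 4.09 TPM elsewhere. The 1030 include 3 genes of the intestinal list (Fabp1, Apoa1 and Apoc3) and 2 of the liver list, and 1025 remained without them. For 489 of the 1030 the highest non-brain library was back skin. Set against the other 18 alone, 1350 genes met the rule, of which 354 were at 10 TPM or more in back skin.

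**Figure D2:**
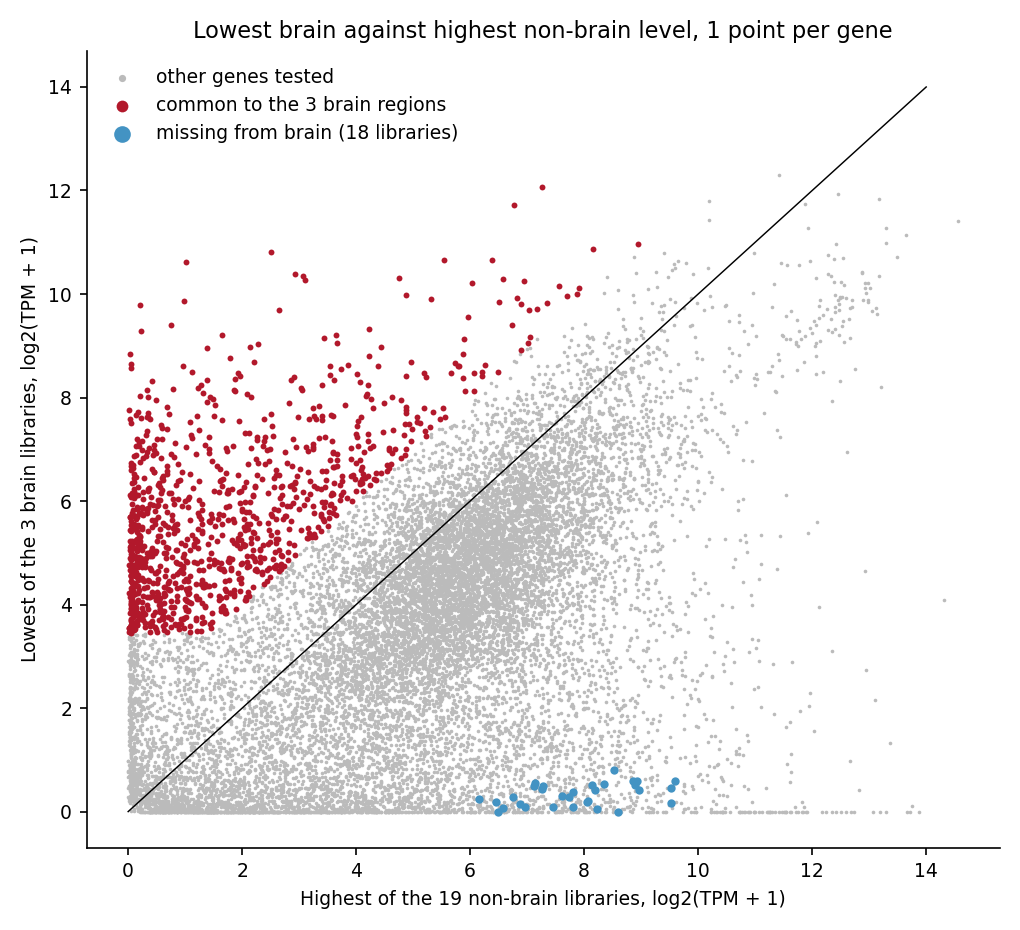
Lowest of the 3 brain libraries (vertical axis) against the highest of the 19 non-brain libraries (horizontal axis), both as log2(TPM + 1), 1 point per tested gene; the line marks equal values. The 1030 common genes lie at upper left by the rule that chose them, and the 31 genes missing from brain against the 18 blood-lineage libraries lie along the bottom.

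The widest gap among genes with 10 TPM or more in every brain library belonged to Snap25, which codes for a SNARE that drives fusion of synaptic vesicles. It had 1565.5, 3189.8 and 4090.8 TPM in putamen, medulla and cortex, against a non-brain median of 0 and a highest value of 1.01 TPM in basophils. Pcsk1n, an inhibitor of a prohormone-cutting enzyme, followed with 884.9, 977.5 and 1045.9 TPM in brain and at most 0.15 TPM elsewhere. Neither gene reached 2 TPM in any non-brain library. Sst, the peptide somatostatin, had 615.8, 459.5 and 773.1 TPM in brain and at most 0.02 TPM elsewhere. Kif5a, a neuronal kinesin heavy chain, had 1352.8, 925.7 and 2311.8 TPM in brain and at most 0.96 TPM, in back skin. The 20 genes with the widest gaps came from neurons and glia alike.

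The other neuronal genes of these 20 were Stmn3 and Stmn4 (stathmins, which bind tubulin), Cplx1 (complexin, which clamps vesicle fusion), Scg3 (a granin of dense-core vesicles), Nrsn1, Sult4a1, Bex2, Lamp5, Ly6h and Vstm2l. Glial genes among them were Mobp of myelin, with 491.5, 1286.8 and 399.5 TPM in brain and at most 0.04 TPM elsewhere, and Slc1a2, the main glutamate uptake carrier of astrocytes. Slc1a2 had 844.5, 588.5 and 1027.9 TPM in brain and at most 2.14 TPM elsewhere. Bcan, a chondroitin sulphate proteoglycan of brain matrix, had 220.0, 258.7 and 214.6 TPM in brain and at most 0.01 TPM elsewhere. Mt3, a brain metallothionein, had 1801.2, 2085.4 and 1905.2 TPM in brain and at most 4.67 TPM elsewhere, in CH12. Mlc1 and Gpr37l1, both membrane proteins of astrocytes, completed the set. Values of Mt3 and Bcan were close to level across the 3 regions, while those of Mobp were highest in medulla. All 20 kept their call with DESeq2, limma on log2(TPM + 1), class means, median-ratio scaling and each library left out. Their choice by the widest gap in the same libraries made this likely. Fitted fold changes of genes at or near 0 in the non-brain libraries depend on the small prior count in the model, so levels are given first.

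Levels of the common genes differed between regions more than those of well-expressed genes in general. The ratio of the highest to the lowest region had a median of 2.1 over the 1030 common genes, and was under 2 for 47.3% of them. Over all 8559 genes at 10 TPM or more in each region the median was 1.41, and 79.6% were under 2. The common genes were highest in cortex for 427, in medulla for 330 and in putamen for 273. With 1 library a region, this difference has no replicate check.

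Promoters of the common genes were searched for the RE1 element, the site in neuronal genes that the repressor REST binds. Its core was split into a left motif, CAGCACC, and a right motif, GGACAGC, sought on both strands in RefSeq promoter windows of GRCm38.p6 that run from 250 bases before to 50 after a gene's start. Of the 1030 genes, 762 had a window, giving 1105 promoters. Both motifs stood in 16 of them (1.45%), against 189 of all 32851 promoters (0.575%) and 106 of the 15866 promoters of tested genes (0.668%). The full core CAGCACCNNGGACAGC, with 2 bases between the motifs, stood in 3 promoters of common genes (0.271%), against 7 of all promoters (0.0213%) and 5 of those of tested genes (0.0315%). It stood in none of the 4279 promoters of genes called lower. At least 1 of the motifs stood in 15.1% of the common promoters and 12.1% of those of genes restricted to brain, against 13.1% of all promoters and 14.5% of those of tested genes. These shares are descriptions with no test, and motifs can overlap by a few bases in some promoters.

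The 3 promoters with the full core were those of Ttc9b, Fbll1 and Hrh3, and they are shown with those of Tubb3, the common gene with the highest brain level that held both motifs farther apart, and Actl6b, a brain subunit of a chromatin remodeller described below. They were chosen after their values were seen. Sequences run 5′ to 3′ on the gene's strand, and capitals mark the motifs, read on either strand (GGTGCTG and GCTGTCC are the left and right motifs on the opposite strand).
Ttc9b, chr7:27653674-27653973, plus strand: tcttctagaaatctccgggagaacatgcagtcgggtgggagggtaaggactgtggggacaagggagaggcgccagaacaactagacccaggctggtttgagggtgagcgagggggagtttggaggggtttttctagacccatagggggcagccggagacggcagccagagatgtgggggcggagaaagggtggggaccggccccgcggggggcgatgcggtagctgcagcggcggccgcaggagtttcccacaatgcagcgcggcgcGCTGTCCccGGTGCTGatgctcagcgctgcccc
Fbll1, chr11:35798835-35799134, minus strand: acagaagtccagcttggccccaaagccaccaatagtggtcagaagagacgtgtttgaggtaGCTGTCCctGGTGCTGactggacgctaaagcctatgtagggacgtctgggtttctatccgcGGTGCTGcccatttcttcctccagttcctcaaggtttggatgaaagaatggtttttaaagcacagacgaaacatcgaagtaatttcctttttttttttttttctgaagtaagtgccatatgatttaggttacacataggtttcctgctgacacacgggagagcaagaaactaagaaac
Hrh3, chr2:180104358-180104657, minus strand: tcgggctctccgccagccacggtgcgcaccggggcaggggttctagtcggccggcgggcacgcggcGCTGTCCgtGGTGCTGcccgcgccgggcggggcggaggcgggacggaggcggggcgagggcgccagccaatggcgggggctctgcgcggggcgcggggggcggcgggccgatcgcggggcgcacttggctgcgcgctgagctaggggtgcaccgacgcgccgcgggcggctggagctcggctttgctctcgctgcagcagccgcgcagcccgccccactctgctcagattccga
Tubb3, chr8:123411303-123411602, plus strand: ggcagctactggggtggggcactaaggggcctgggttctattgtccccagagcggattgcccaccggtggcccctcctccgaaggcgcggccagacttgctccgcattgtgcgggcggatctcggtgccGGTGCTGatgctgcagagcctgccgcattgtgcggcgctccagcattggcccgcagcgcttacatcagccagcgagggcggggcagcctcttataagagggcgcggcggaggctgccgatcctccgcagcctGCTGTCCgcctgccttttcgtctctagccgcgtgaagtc
Actl6b, chr5:137553296-137553595, plus strand: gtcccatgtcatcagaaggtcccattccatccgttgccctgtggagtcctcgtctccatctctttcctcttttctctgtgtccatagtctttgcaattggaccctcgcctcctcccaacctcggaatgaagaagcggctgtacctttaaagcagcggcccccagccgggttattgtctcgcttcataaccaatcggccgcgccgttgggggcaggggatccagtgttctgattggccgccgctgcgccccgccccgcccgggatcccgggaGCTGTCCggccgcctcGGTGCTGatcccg
Ttc9b, which codes for a tetratricopeptide-repeat protein, had 84.1, 57.8 and 346.6 TPM in putamen, medulla and cortex and at most 0.11 TPM elsewhere. Fbll1, a fibrillarin-like gene, had 75.8, 55.1 and 52.45 TPM in brain and at most 0.06 TPM elsewhere. Hrh3, the presynaptic histamine receptor, had 140.7, 20.9 and 77.4 TPM in brain and at most 0.21 TPM elsewhere. All 3 genes were restricted to brain. Tubb3, the neuronal beta-tubulin, had 393.4, 675.2 and 487.2 TPM in brain and up to 75.6 TPM in back skin. Its motifs begin at bases 130 and 262 of the window and those of Ttc9b at bases 268 and 277; base 250 is the last before the annotated start.

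Rest itself was lower in brain. It had 1.59, 2.81 and 1.21 TPM in putamen, medulla and cortex, against 4.93 (back skin) to 34.3 TPM in non-brain libraries with a median of 19.98 TPM, so the groups did not overlap (edgeR log2 fold change -3.81, SE 0.42, adjusted p = 1.674e-07). Rcor1, a corepressor that acts with REST, had 9.14, 7.58 and 10.5 TPM in brain, against a lowest non-brain value of 24.2 TPM. Both genes and Ctdsp1, a phosphatase recruited by REST, were called lower. Rcor2 was not called.

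**Figure D3:**
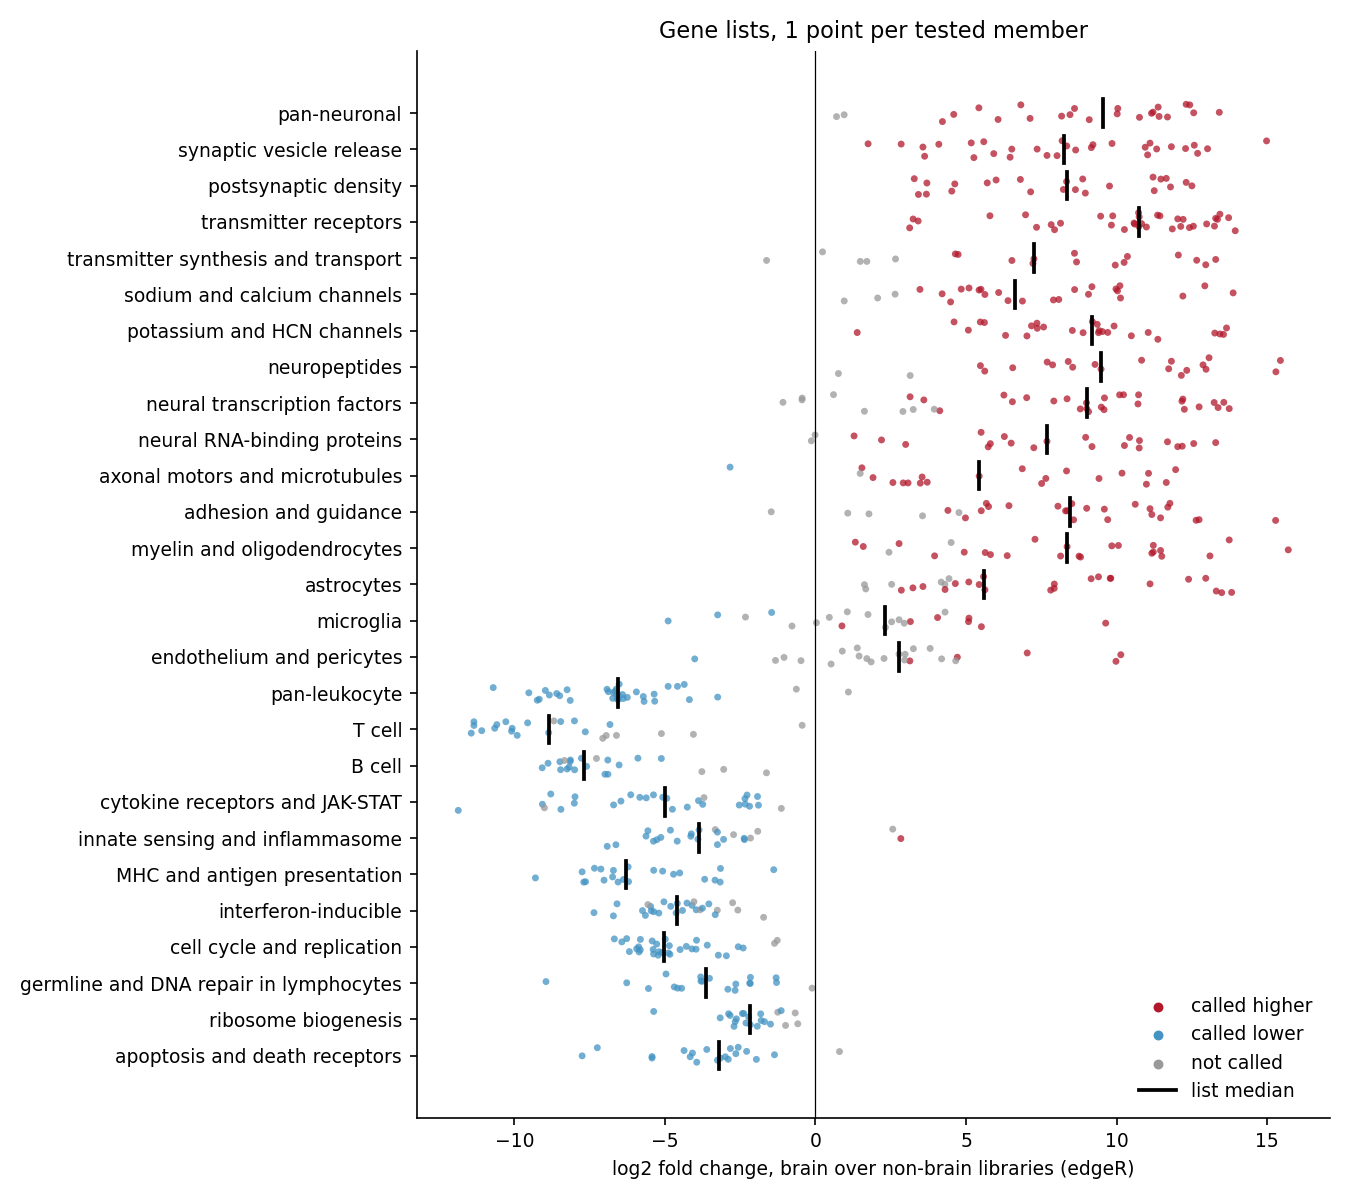
Log2 fold change of brain over non-brain libraries (edgeR) for every tested member of 27 gene lists, 1 point per gene, red where called higher, blue where called lower and grey where not called; black bars mark list medians. Medians of the 14 neural lists lie between 5.44 and 10.75, and those of the 11 leukocyte and proliferation lists between -8.86 and -2.19.

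Genes of the nervous system were described in 14 lists that together hold 365 genes. Of the 362 with enough counts to test, 326 were called higher and 1 lower, against 27.0% called higher among all genes tested, and 214 met the rule for common genes. The lists were made up of known neural genes, so a high share is what they were chosen for, and the members that did not separate are given beside those that did. Leaving out any 1 brain library left 314 to 318 called higher, and 242 were called higher against back skin alone.

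All 30 genes of vesicle release rose, with a median log2 fold change of 8.27 against -0.16 for all genes. Syt1, the calcium sensor of fast release, had 365.8, 146.3 and 829.4 TPM in putamen, medulla and cortex and at most 0.50 TPM elsewhere, whereas Syt2, the sensor of fast hindbrain synapses, had 31.7, 214.9 and 44.9 TPM. The SNARE Vamp1 likewise had 55.3, 1027.3 and 233.7 TPM, with up to 83.7 TPM in splenic B cells, while Vamp2 had 896.2, 575.2 and 1350.7 TPM. So Syt2 and Vamp1 were highest in medulla, and Syt1 and Vamp2 in cortex. Cplx2, a second complexin, had 1345.5, 291.7 and 912.9 TPM in brain and at most 7.19 TPM elsewhere.

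All 23 tested postsynaptic genes rose, with a median of 8.34 on the log2 scale. Their summed level was 8733.4 TPM in putamen, 1603.8 TPM in medulla and 11744.8 TPM in cortex, against 111.2 TPM in back skin and 42.8 to 135.9 TPM in the other 18. Nrgn, neurogranin, which holds calmodulin in dendrites, had 3143.4, 96.2 and 5013.0 TPM. Camk2a, the synaptic calcium kinase, had 1202.5, 98.8 and 2452.7 TPM. Both were more than 10-fold lower in medulla than in the forebrain libraries and still above every non-brain library.

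All 35 transmitter receptors rose, with the highest median of the 14 lists, 10.75. Grin1, the subunit that every NMDA receptor holds, had 327.0, 203.7 and 366.6 TPM in brain and at most 0.65 TPM elsewhere. Dopamine receptor Drd1 had 195.3 TPM in putamen, 0.50 TPM in medulla and 11.8 TPM in cortex, and the glycine receptor Glra1 had 3.76, 120.1 and 0.35 TPM in the same order. Both were called higher although neither was at 10 TPM in all 3 regions. Gabbr1, of the metabotropic GABA receptor, had 395.9, 275.6 and 380.3 TPM in brain and reached 156.1 TPM in basophils.

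Genes that make or move transmitters were less uniform, and 14 of 19 rose. Gad1, which makes GABA, had 377.4, 155.8 and 292.5 TPM in brain and up to 17.6 TPM in B cells given aCD40+IL4. Slc17a7, a vesicular glutamate carrier, had 100.9, 70.0 and 1270.7 TPM, and its relative Slc17a6 had 6.32, 167.2 and 18.2 TPM. The 2 carriers were thus highest in different regions. Slc18a2, the vesicular monoamine carrier, had 2.96, 14.6 and 3.66 TPM in brain and 252.9 TPM in basophils. Slc6a5, Slc6a3 and Dbh did not have enough counts in enough libraries to test.

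All 27 potassium and HCN channel genes rose, as did 23 of 26 sodium and calcium channel genes. Kcnj4, an inward rectifier, had 238.9 TPM in putamen, 1.31 TPM in medulla and 154.2 TPM in cortex. Scn1a, a sodium channel of axons, had 29.0, 99.3 and 77.3 TPM and at most 0.02 TPM elsewhere. The genes that were not called were all calcium channel subunits found in leukocytes: Cacna1i had 38.3, 13.5 and 46.3 TPM in brain and 70.7 TPM in splenic B cells, Cacna1e had 48.4, 13.4 and 32.5 TPM in brain and 40.4 TPM in the same cells, and Cacna1d had 9.54, 4.96 and 10.3 TPM in brain and 34.8 TPM in Tfh cells.

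Of 21 neuropeptides and their processing enzymes 19 rose, with a median of 9.48. Adcyap1 and Crh had no counts in any non-brain library. Against a floor of 3 counts over the 19 libraries they were at least 7034-fold and 3955-fold higher in brain, and the list median stayed 9.48 with both at these bounds. Cck, cholecystokinin, had 112.8, 113.8 and 1233.3 TPM in brain, and Tac1, the precursor of substance P, had 511.9, 86.3 and 33.2 TPM. Penk, the enkephalin precursor, was not called: it had 3145.1, 384.8 and 174.7 TPM in brain and 1571.4 TPM in the mutant Tfr library. Npb was the other gene not called.

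Among 35 transcription factors 27 rose. Olig1, which sets oligodendrocyte fate, had 194.2, 448.0 and 202.3 TPM in brain and at most 0.17 TPM elsewhere, and Pou3f3 had 87.6, 53.5 and 96.8 TPM with at most 0.14 TPM elsewhere. The 8 not called were Mef2c, Bcl11a, Bcl11b, St18, Npas4, Pou3f1, Lhx2 and Sox9. Mef2c had 78.4, 9.85 and 282.7 TPM in brain and up to 285.7 TPM in B cells given aCD40+IL4, and Bcl11b had 133.5, 4.57 and 22.6 TPM in brain and up to 184.0 TPM in CD4+ T cells. Both are also known regulators of lymphocyte development.

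Of 23 RNA-binding proteins 21 rose. Elavl3, a neuronal Hu protein that stabilises transcripts, had 133.6, 153.1 and 159.6 TPM in brain and at most 0.10 TPM elsewhere. Rbfox3, the antigen of the neuronal marker NeuN, had 238.7, 122.9 and 353.0 TPM and at most 0.25 TPM elsewhere. Celf2 and Msi2 were not called, and both were well expressed in leukocytes, with non-brain medians of 71.2 and 25.4 TPM.

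Motors and microtubule genes rose in 19 of 21. Kif21b, a kinesin, was the only gene of the neural lists called lower, with 14.3, 16.2 and 27.3 TPM in brain against a non-brain median of 105.2 and a highest value of 274.9 TPM (edgeR log2 fold change -2.83, SE 0.89, adjusted p = 0.01041). Back skin, at 6.23 TPM, was lower than every brain library. Of 24 pan-neuronal genes 22 rose. Thy1, a surface protein of neurons and of T cells, had 707.2, 925.6 and 1155.3 TPM in brain and 1674.8 TPM in non-Tfh cells, and L1cam, an axonal adhesion protein, had 50.2, 57.5 and 44.9 TPM in brain and 189.1 TPM in basophils. Neither was called. Ncam1, called higher, had 113.3 TPM in putamen and 153.1 TPM in medulla but 6.90 TPM in cortex. Of 28 adhesion and guidance genes 23 rose. The semaphorin Sema4a was not called, with 20.1, 33.1 and 28.9 TPM in brain and 293.9 TPM in basophils.

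Over the 14 neural lists, 41 genes had a non-brain library above the lowest brain library, and 32 still did when back skin was left out. In 15 a library other than back skin exceeded every brain library. These names are neural by custom but did not separate brain from leukocytes here.

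Myelin genes were the highest group in medulla. Their summed level was 10746.3 TPM in putamen, 34053.9 TPM in medulla and 8319.5 TPM in cortex, against 241.3 TPM in back skin and 224.0 to 601.5 TPM in the other 18, and 23 of 25 rose. Mbp, myelin basic protein, had 5552.4, 19733.1 and 4301.6 TPM in brain and up to 153.2 TPM in non-Tfh cells. Markers of oligodendrocyte precursors were level across the regions: Pdgfra had 23.1, 22.9 and 20.5 TPM and Cspg4 had 5.48, 4.94 and 5.35 TPM. Those 2 genes were not called, with 12.4 and 12.2 TPM in back skin. In bulk tissue, fewer cells of a type and less RNA per cell cannot be told apart.

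Of 28 astrocyte genes 22 rose, with a median of 5.60. Gfap, the astrocyte filament, had 115.4, 2138.9 and 158.8 TPM in brain and at most 0.24 TPM elsewhere, and was highest in medulla. Aqp4, the water channel of astrocyte endfeet, had 50.8, 256.8 and 47.5 TPM and at most 1.70 TPM elsewhere. The genes not called were Gja1, Gjb6, Sox9, Ppp1r3c, Slc7a10 and Htra1. Back skin was the highest non-brain library for all of these but Slc7a10: Gja1, a gap junction subunit, had 194.5, 299.5 and 169.7 TPM in brain against 872.6 TPM in back skin. Without back skin 27 of the 28 were called higher.

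Of 21 microglial genes 7 rose, a share near the 27.0% of all genes tested, and 3 fell, a share below the 26.7%. Leaving out putamen, medulla or cortex left 5, 6 and 5 called higher and 1, 2 and 1 called lower. P2ry12, a purine receptor of resting microglia, had 45.2, 25.6 and 40.6 TPM in brain and at most 3.25 TPM elsewhere, and Tmem119 had 47.6, 32.5 and 59.5 TPM with 10.9 TPM in back skin. The 3 that fell (Ctss, Selplg and Laptm5) are expressed by leukocytes at large, and back skin was below every brain library for each of them. Ctss lost its call without putamen, without cortex and with limma, class means or median-ratio scaling, and Selplg lost it without any 1 brain library and with limma. Tyrobp, a signalling adaptor of myeloid cells, was not called, with 54.4, 39.3 and 51.3 TPM in brain and 2764.4 TPM in basophils. Of 23 endothelial and pericyte genes 5 rose and 1 fell, neither share above that of all genes tested. Slco1c1, a carrier of the blood-brain barrier, had 36.5, 14.9 and 35.3 TPM in brain and at most 0.25 TPM elsewhere. Pecam1, which leukocytes also carry, had 6.96, 7.02 and 6.98 TPM in brain against a non-brain median of 87.8 TPM. Without back skin, 11 microglial and 15 vascular genes were called higher.

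Many proteins have a neuronal form and a form used by other cells, coded by different genes. The second is called the general gene here, but not all of these genes are widely expressed. Coro1a had 21.4 to 2979.6 TPM in non-brain libraries, with a median of 2148.6 TPM, and Rac2 had 4.63 to 1119.2 TPM, with a median of 673.7 TPM. Ckm had 983.6 TPM in back skin and a non-brain median of 0.57 TPM. Since 18 of the 19 libraries are blood-lineage cells, a lower call is likely for a leukocyte gene. In 29 such pairs, the neural gene was called higher in 28, against 27.0% of all genes tested, and the general gene was called lower in 18, against 26.7%, higher in 3 and not called in 8. Of the 18, Tubb5 and Tubb6 lost their call without any 1 brain library and with limma or median-ratio scaling, and Elavl1 lost it with limma. The neural gene had more TPM than its partner in all 3 brain libraries in 21 pairs, and the partner had more in all 19 non-brain libraries in 25. Both held in 17 pairs, so in those the more abundant gene differed between every brain and every non-brain library.

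Among the SNAREs, Snap25 is paired with Snap23, which had 14.1, 17.6 and 11.5 TPM in putamen, medulla and cortex against 22.9 to 199.8 TPM elsewhere (edgeR log2 fold change -2.004, SE 0.66, adjusted p = 0.01455). Vamp8, the partner of Vamp2, had 34.1, 45.9 and 25.9 TPM in brain against 74.3 to 390.2 TPM elsewhere. In both cases brain and non-brain libraries did not overlap for either gene. In 1 of 3 pairs of subunits of the chromatin remodeller BAF, the more abundant gene differed between every brain and every non-brain library. Actl6b had 121.3, 50.8 and 88.0 TPM in brain and at most 0.11 TPM elsewhere. Its partner Actl6a had 22.99, 17.0 and 15.1 TPM in brain against 35.1 to 134.3 TPM elsewhere. In the other pairs the general gene was the more abundant in some brain library. Dpf2 had 44.6 TPM against 18.7 TPM for Dpf1 in medulla, and Ss18 had 21.4 TPM against 19.9 TPM for Ss18l1 in putamen. The groups still did not overlap for Ss18l1, with 19.9 to 31.8 TPM in brain and at most 9.4 TPM elsewhere. Nor did they for Ss18, with 21.4 to 30.0 TPM in brain and at least 42.6 TPM elsewhere.

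Ptbp1, a splicing repressor that holds neuronal exons back, had 28.0, 19.9 and 16.5 TPM in brain against 109.2 to 647.5 TPM elsewhere (edgeR log2 fold change -4.36, SE 0.43, adjusted p = 3.298e-08). Its neural relative Ptbp2 had 57.6, 59.1 and 53.0 TPM in brain against 7.54 to 43.8 TPM elsewhere (log2 fold change 1.28, SE 0.30, adjusted p = 0.001272). Ptbp3, the leukocyte-rich relative, was among the 20 widest gaps in the lower direction, with 12.5, 6.60 and 9.80 TPM in brain against 86.7 to 240.1 TPM. Rac2, a GTPase of blood cells, had 2.78, 2.47 and 2.61 TPM in brain against 4.63 (back skin) to 1119.2 TPM, and Rac3 had 19.6, 48.9 and 29.4 TPM in brain with at most 15.5 TPM elsewhere.

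In some pairs the general gene was not called lower or the neural gene was not called higher. The general genes Kif5b, Mapk9 and Napa were called higher in brain along with their neural partners: Kif5b had 207.2, 334.4 and 211.5 TPM in brain against 60.6 to 96.4 TPM elsewhere. Cyfip2 was the neural gene not called. It had 349.6, 269.2 and 461.7 TPM in brain, above the non-brain range of 4.48 to 247.1 TPM, whose median was 148.8 TPM. It was called higher with DESeq2, median-ratio scaling, class means and without back skin.

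**Figure D4:**
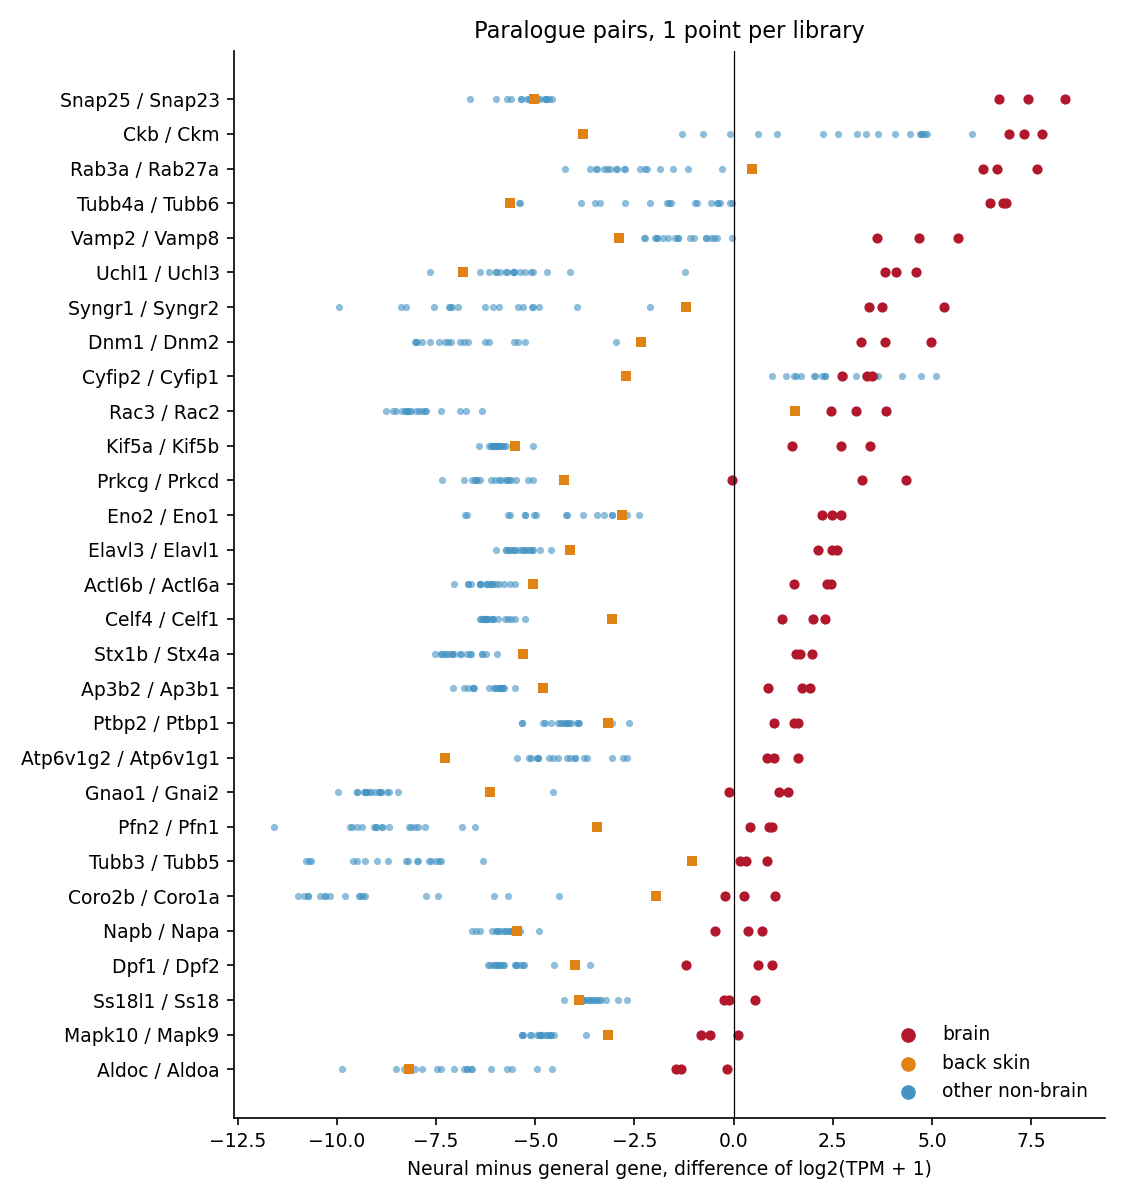
Neural gene minus general gene for 29 paralogue pairs, as the difference of log2(TPM + 1), 1 point per library (red brain, orange back skin, blue the other 18). Values right of 0 mean that the neural gene is the more abundant; in 17 pairs all brain libraries lie to the right of 0 and all 19 non-brain libraries to the left.

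Genes missing from brain were sought as those under 1 TPM in all 3 brain libraries, at 10 TPM or more in all 19 others and at least 2 apart on the log2(TPM + 1) scale. There were 3, or 0.0186% of the genes tested: H2-T9, Mndal and Tmem154. H2-T9, a class I-like gene, was listed at 0 in all 3 brain libraries and at 10.9 to 385.9 TPM in the others. The 0 allows up to 0.0212 CPM (counts scaled to library size) over the brain libraries, for counting error only. Near-identical class I genes share its reads and the counting could split them, so no fold change is given. Mndal, of the interferon-inducible p200 family, had 0.74, 0.87 and 0.51 TPM in brain against 12.02 to 775.5 TPM, and Tmem154 had 0.80, 0.37 and 0.22 TPM against 11.1 to 107.2 TPM.

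Few widely expressed genes were absent from brain. Of 5597 genes at 10 TPM or more in all 18 libraries other than back skin, 4910 were also at 10 TPM or more in all 3 brain libraries, 418 were under 10 TPM in all 3, 31 were under 1 TPM in all 3 and 1 was under 0.1 TPM. The 31 are 0.192% of the genes tested. All were called lower, which the rule made likely. In back skin 13 of them were under 1 TPM, 15 were at 1 to 10 TPM and 3 at 10 TPM or more, so most were also under 10 TPM in the other solid tissue.

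Of the 31, 5 were in the list of genes shared by leukocytes (Cytip, Ikzf3, Itgal, Myo1g and Spn), and no other list held any of them. Itgal, the alpha chain of the integrin LFA-1, had 0.56, 0.52 and 0.37 TPM in putamen, medulla and cortex and 0.80 TPM in back skin, against at least 94.3 TPM in each of the 18. Myo1g, a myosin of blood cells, had 0.50, 0.47 and 0.33 TPM in brain and 3.10 TPM in back skin, against at least 128.9 TPM. Spn, the sialoglycoprotein CD43, had 0.23, 0.25 and 0.12 TPM in brain, against at least 10.4 TPM in each of the 18. Runx3 and Ikzf3, transcription factors of lymphocytes, had 0.15, 0.13 and 0.10 TPM and 0.61, 0.49 and 0.33 TPM in brain, against at least 38.6 and 19.6 TPM.

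Others were the receptors P2ry10, Gpr132, Gpr171 and Cd69, the adaptors Stap1, Traf3ip3 and Tespa1, the GTPases Rhoh and Gimap5, the transcription factors Batf and Elf4, and Cytip, Acap1, Evi2b, Tspan32, Milr1, Phf11b and Ifi203. Slc17a9, which loads nucleotides into vesicles, and Insl3, a hormone of the testis, were also among them, at up to 0.44 and 0.63 TPM in brain. A wider set of 1015 genes was under 1 TPM in all brain libraries and at 10 TPM or more in at least 1 of the 19. Of these 423 were highest in back skin, 166 were at 10 TPM or more in at least 10 libraries, and 157 were at 0 in all 3 regions. Of the 1015, 232 had too few counts in too few libraries to test, and 370 of the rest were called lower. The share called lower among all genes tested was 26.7%, but the rule made such calls likely in this set.

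**Figure D5:**
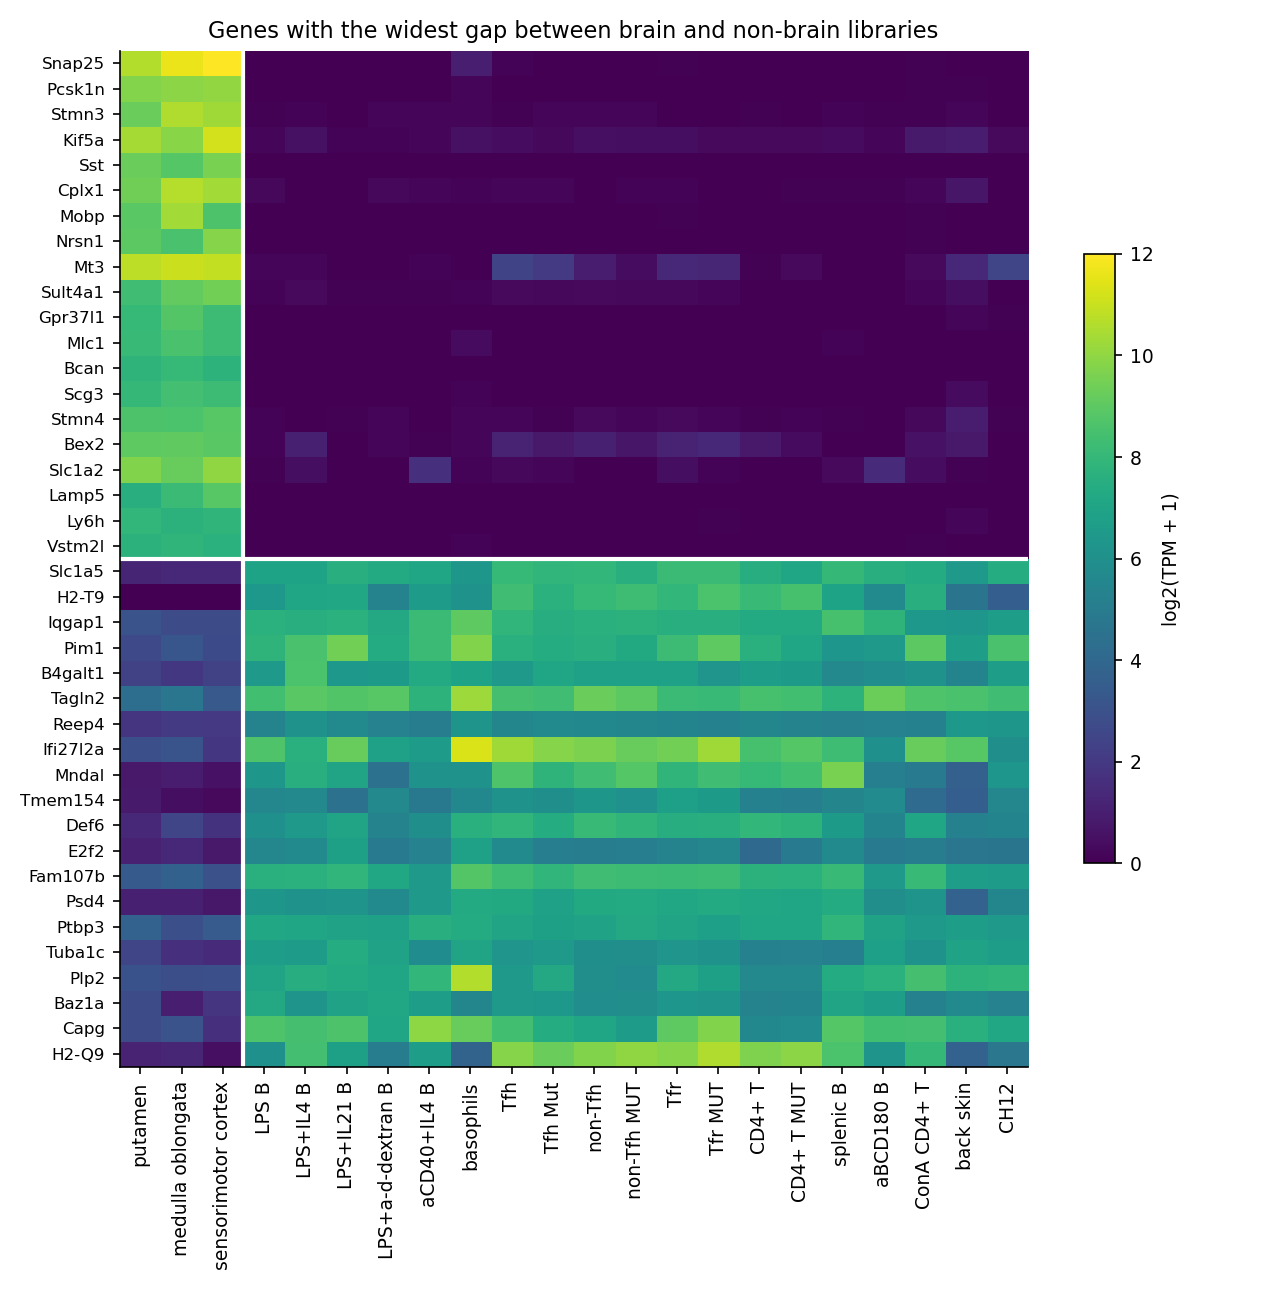
Level of the 20 genes a direction with the widest gap between brain and non-brain libraries, as log2(TPM + 1), genes in rows and libraries in columns, with the 3 brain libraries at left of the white line. Upper rows were chosen for being higher in brain and lower rows for being lower; H2-T9 is at 0 in all 3 brain libraries.

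The widest gap in the lower direction was that of Slc1a5, the glutamine carrier of dividing cells. It had 1.34, 1.65 and 1.56 TPM in putamen, medulla and cortex against 79.8 to 291.1 TPM elsewhere, back skin included (edgeR log2 fold change -7.22, SE 0.43, adjusted p = 1.903e-11). Iqgap1, a scaffold of the cell cortex, had 7.51, 5.93 and 5.61 TPM in brain against 77.4 to 519.0 TPM. Pim1, a kinase induced by cytokines, had 5.21, 8.28 and 5.46 TPM in brain against 78.4 to 836.8 TPM. All 3 were low in every region. The groups did not overlap, which follows from the ranking by gap and is no separate result. The other genes of this set were B4galt1, Tagln2, Reep4, Ifi27l2a, Def6, E2f2, Fam107b, Psd4, Tuba1c, Plp2, Baz1a, Capg and H2-Q9, with H2-T9, Mndal, Tmem154 and Ptbp3 given above.

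Genes shared by leukocytes fell in 34 of 36, against 26.7% of all genes tested, with a median log2 fold change of -6.57. The list was made up of known leukocyte genes, and every non-brain library but back skin is of blood-lineage cells. A high share called lower is therefore what the list was chosen for. The choice of members made lower calls likely in the T-cell, B-cell and cytokine receptor lists below as well. Ptprc, the leukocyte phosphatase CD45, had 1.74, 2.51 and 1.82 TPM in brain, against 4.09 TPM in back skin and a non-brain median of 513.3 TPM. The genes shared by leukocytes were low but present: 28 of the 36 were at 1 TPM or more in every region. The 2 not called were Prkcb, a protein kinase C that neurons also hold, with 663.2, 154.9 and 541.9 TPM in brain and a non-brain median of 118.6 TPM, and Evl, with 213.2, 158.1 and 188.4 TPM and a median of 210.6 TPM. Against back skin alone 5 of the list were called lower and 2 higher, with a median of -0.93.

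T-cell genes fell in 16 of 23 and B-cell genes in 17 of 22, against 26.7% of all genes tested. Only 2 T-cell genes and 1 B-cell gene lay below all 19 libraries. The T-cell list summed to 232.7, 21.0 and 43.4 TPM in putamen, medulla and cortex, against 69.5 to 13949.6 TPM in the 18 blood-lineage libraries. For the B-cell list the lowest of the 18 had 67.9 TPM, below the 110.8 TPM of putamen and the 123.5 TPM of medulla. Leaving out putamen, medulla or cortex in turn left 7, 4 and 3 T-cell genes and 7, 5 and 7 B-cell genes called lower, and limma on log2(TPM + 1) called 2 and 10. The median log2 fold changes were no smaller without a region. For T-cell genes they were -8.86 over all 3 regions and -10.34, -9.14 and -9.65 without each. For B-cell genes they were -7.69 and -8.00, -7.86 and -7.93. They were smaller, at -2.91 and -3.74, when B cells, T cells, CH12, basophils and skin were weighted equally. That fit called 12 T-cell and 16 B-cell genes lower and 2 T-cell genes higher. Against back skin alone the medians were -1.47 and -0.6. Cd4 was not called, with 77.0 TPM in putamen, 0.15 TPM in medulla and 3.64 TPM in cortex. Over the B-cell list the median level was 1.27, 1.20 and 0.90 TPM in putamen, medulla and cortex and 1.01 TPM in back skin, while the list summed to 110.8, 123.5 and 55.2 TPM in brain and 286.0 TPM in back skin. Some members differed little: Cd79a, of the B-cell receptor, had 3.14, 2.99 and 2.84 TPM in brain and 2.33 TPM in back skin, and Ms4a1, CD20, had 1.42, 1.55 and 1.16 TPM in brain and 1.60 TPM in back skin. Their highest non-brain values were 3543.1 and 1688.0 TPM.

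All 22 genes of antigen presentation fell, against 26.7% of all genes tested, with a median of -6.30. Leaving out putamen, medulla or cortex left 19, 16 and 17 called lower, and limma called 20. B2m, the light chain of class I molecules, had 221.6, 144.0 and 121.7 TPM in brain against 573.9 (back skin) to 6219.2 TPM. Tap1, the peptide pump, had 2.25, 2.80 and 1.22 TPM in brain against a lowest non-brain value of 15.4 TPM. Nlrc5, which switches class I genes on, had 0.11, 0.21 and 0.10 TPM in brain against 2.72 to 177.9 TPM. These 3 genes were below all 19 libraries. H2-Ab1, a chain of class II molecules, had 23.3, 11.7 and 7.58 TPM in brain, against 109.4 TPM in back skin and a non-brain median of 177.9 TPM, with basophils, at 9.22 TPM, within the brain range. Against back skin alone 12 of the 22 were called lower, with a median of -2.45. Reads of class I genes are shared between near-identical copies, which adds uncertainty to H2-K1 and H2-D1.

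Cytokine receptor and JAK-STAT genes fell in 25 of 28, interferon-inducible genes in 20 of 27 and innate sensors in 18 of 24. The share called lower among all genes tested was 26.7%. Leaving out putamen, medulla or cortex left 15, 14 and 13 innate sensors and 19, 19 and 18 interferon-inducible genes called lower. It left 22 cytokine receptor and JAK-STAT genes each time. Against back skin alone the median log2 fold changes of the lists were -1.78, -1.98 and -1.07. Il2rg, the receptor chain shared by several interleukins, had 1.31, 0.98 and 1.14 TPM in brain, against 4.32 (back skin) to 998.5 TPM elsewhere. Stat6 had 6.00, 3.52 and 6.85 TPM in brain against 35.5 to 188.5 TPM. Tlr3, which senses double-stranded RNA, was the exception, called higher with 8.28, 12.9 and 8.46 TPM in brain and a non-brain median of 0.29 TPM. Its call was lost when any 1 brain library was left out. Il18 had 33.4, 27.5 and 25.03 TPM in brain, above the highest non-brain value of 18.8 TPM in back skin, but was not called.

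Cell-cycle genes fell in 30 of 32, against 26.7% of all genes tested, with a median of -5.04. Mki67, a marker of dividing cells, had 4.46, 0.78 and 0.59 TPM in putamen, medulla and cortex, against 6.23 to 252.5 TPM in non-brain libraries. Mcm6, of the replicative helicase, had 4.33, 1.29 and 1.36 TPM in brain against 7.73 (back skin) to 418.9 TPM. Both were highest in putamen among the regions, the library with the highest intestinal sum. The part of intestinal cells in this was not tested. Ccne1 and E2f1 were not called. Against back skin alone, a side of 1 library, the median was -1.99 and 1 gene was called lower.

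A list of DNA repair and methylation genes active in lymphocytes and germline fell in 19 of 20, against 26.7% of all genes tested. Lig4 was not called, at 8.93, 8.48 and 9.07 TPM in brain and a non-brain median of 8.21 TPM. The list summed to 201.3, 179.4 and 207.7 TPM in putamen, medulla and cortex, above the 161.6 TPM of back skin. Its median log2 fold change was -3.64 against all 19 libraries and -0.72 against back skin alone. Ribosome biogenesis genes fell in 18 of 22, also set against 26.7%, with a median of -2.19, and of -0.61 against back skin alone. Myc, which drives that programme, had 4.85, 3.95 and 3.44 TPM in brain against 29.3 (back skin) to 407.0 TPM. Death receptor and apoptosis genes fell in 19 of 20, against the same 26.7%. Casp8, the initiator caspase, had 4.61, 1.89 and 1.94 TPM in brain against 12.2 to 147.3 TPM. Mcl1 had 47.5, 60.7 and 61.1 TPM in brain against 154.3 to 608.0 TPM. Bcl2l1, the survival gene of the same family, was not called, with 110.6, 150.7 and 140.6 TPM in brain and a non-brain median of 40.7 TPM. For Casp8 and Mcl1 the lowest non-brain library was back skin, and it too lay above all brain libraries.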

How the data were processed

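Poly(A) RNA was sequenced from 22 mouse libraries on an Illumina HiSeq 3000, per the labels' protocols. The tools named are CASAVA 1.8.2, STAR, bedtools and RSEM, and the build is mm10, per the submitters' processing notes. Their settings, strand use and the dissection of the tissues are not given in the sources used here. Each deposited file holds an expected count, a TPM value and an FPKM value per gene, per the file headers. FPKM values, deposited by the authors, were not used. Of the expected counts above 0, 86.1% were whole (within 1e-09). The 4237 rows that are not protein-coding are at 0 in every library and were left out, and 511 of the 20674 protein-coding rows were at 0 throughout. Protein-coding counts totalled 43.0 to 52.5 M reads in brain libraries and 30.8 to 147.9 M reads in the others.

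Counts were rounded and tested with edgeR 4.0.16 (filterByExpr, TMM scaling, quasi-likelihood F-test, Benjamini-Hochberg over all 16123 genes tested, threshold 0.05) in R 4.3.3, brain against non-brain, with no other term. Standard errors come from that fit. limma 3.58.1, DESeq2 1.42.0 and other settings were alternatives. The procedure was tested on simulated counts. Common and missing genes were chosen by the rules of size on TPM given above. Named genes are members of the lists and pairs, and up to 20 genes a direction with the widest gap between groups among called genes at 10 TPM or more in every library of the higher group. Unnamed gene models, immunoglobulin and receptor segments and intestinal genes (Apoa4, Fabp2 and Sis included) were not named from that ranking. The members, lists and rules were chosen with earlier results of these data known. The liver list, the list of REST partners and the promoters printed were chosen after the values were seen. A few genes of the lists and some of the pairs are not reported here.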

Additional observations from a re-analysis of the deposited data

How the results depend on the processing

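Of the counts of genes called, those against back skin alone moved by over 1.5 times, to 4687 (2206 higher and 2481 lower in brain), with 1 library assumed to vary as the brain libraries do. Without each library in turn the calls ranged over 7361 to 10012, with 3632 to 5401 higher and 3725 to 4611 lower. A log2 gap of 1 in place of 2 gave 1565 common genes, and leaving out each library gave 1030 to 1350. The genes missing from brain against all 19 numbered 1 with a gap of 3, 1 with a ceiling of 0.5 TPM in brain, 6 with a minimum of 5 TPM and 31 without back skin, a range over left-out libraries of 3 to 31. Against the 18 they numbered 49 with the minimum of 5 TPM, 12 with the ceiling of 0.5 TPM and 31 to 44 over left-out libraries. The difference in genes at 1 TPM or more ranged over 2761 to 3080, that in the share of the 100 highest genes over -14.63 to -13.53 percentage points, and the neural genes called higher, without each brain library, over 314 to 318. Turns of sign in log2 fold change were counted only for named genes called in the fit reported or in the alternative. Those that turned were Ckm and Slc18a2. Ckm, not called in the fit reported, was 3.39 with limma and 2.34 with class means. Over left-out libraries it lay between -2.16 and 4.64 (without back skin), and Slc18a2 between -2.69 and 1.99 (without basophils). With class means, which weight B cells, T cells, CH12, basophils and skin equally, Bcl11b (8.41), Npas4 (6.84), Abcb1a (2.36), Itm2a (3.25), Evl (1.99) and Cd4 (3.58) also turned. The cause was not tested. Median-ratio scaling, DESeq2, no filter on low counts, both pseudocounts with limma and class means kept the count of calls within 1.5 times. Of 665 named genes called, DESeq2 lost 12, limma 41, class means 17 and median-ratio scaling 15, and leaving out putamen, medulla or cortex lost 52, 64 and 63. No paired analysis was possible because every group has 1 library. With 1 library a region, no difference between regions can be tested, and age, sex, dissection and library cannot be told apart from region.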
